A study of Mus musculus with 18 samples.

Results

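Monomethylation of lysine 27 (H3K27me1) and trimethylation of lysine 36 (H3K36me3) of histone H3 were compared over gene bodies of untreated E14 cells, a mouse embryonic stem cell line. The comparison used 4 of the 18 libraries of the series, 2 replicates of each mark, and 13323 of 20665 autosomal protein-coding genes, namely those whose annotated span in GRCm38 was at least 10 kb. The other untreated libraries, 2 each of H3K27me2, H3K27me3 and H3K36me2, were read over the same genes, and the treated, spike-in calibrated libraries were not used here.

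All 10 untreated libraries came from cells labelled as not treated, with no foreign chromatin added. The cells grew on gelatin in serum-free medium with LIF and inhibitors of GSK3 and MEK (2i), which holds them in a naive pluripotent state, and the medium carried isotope-labelled arginine and lysine. H3K27me1 was precipitated with a monoclonal and H3K36me3 with a polyclonal antibody, so the marks also differ in antibody, and an input library was not analysed here. The labels do not say whether the replicates came from separate cultures, so p-values measure the spread between these libraries, which may be technical.

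H3K36me3 is laid down by SETD2, which travels with elongating RNA polymerase II, and it marks the bodies of transcribed genes, usually more toward the 3′ end. Lysine 27 is methylated by Polycomb repressive complex 2 (PRC2) through its catalytic subunits EZH2 and EZH1. Its trimethyl form covers silent developmental genes, its dimethyl form covers much of the remaining genome, and its monomethyl form is known in embryonic stem cells for its presence over transcribed gene bodies.

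Values are relative levels: the reads in 1 kb windows divided by the library's own mean over autosomal windows, so that 1 is the library mean. A gene called higher in H3K27me1 therefore held a larger multiple of the H3K27me1 mean than of the H3K36me3 mean. It says nothing about how many nucleosomes carried either mark. Window reads summed to 52.4 M and 42.4 M for H3K27me1 (replicates 1 and 2) and to 26.5 M and 22.6 M for H3K36me3, and a single read was worth a relative level of 0.0470, 0.0580, 0.0929 and 0.109 in a window of these 4 libraries.

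The labelled cell type was checked against marker genes. H3K36me3 levels of the 10 pluripotency markers ran from 2.22 (Dnmt3l) to 7.65 (Tfcp2l1), with a median of 4.8 against 2.00 over all tested genes. The 7 of 8 fibroblast markers in the gene table had a median of 0.473, from 0.135 (Dcn) to 1.91 (Col1a1), and the 5 of 6 neuron markers a median of 0.368, from 0.186 (Map2) to 2.02 (Gad1). H3K27me1 separated the sets less, with medians of 1.23, 0.762 and 0.763, all below the 1.31 of all tested genes. Replicates differed beyond counting noise, most for H3K27me1, where the chi-square per degree of freedom over genes was 24.9 against 8.83 for H3K36me3. H3K27me1 replicate 2 had the narrower range of the 2 libraries, and this difference recurs in the values below.

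Both marks were enriched over gene bodies, H3K36me3 by the larger factor. Mean relative levels over the gene bodies were 1.24 and 1.18 in the H3K27me1 libraries and 1.67 and 1.69 in the H3K36me3 libraries. In windows more than 10 kb from any gene they were 0.738 and 0.804 for H3K27me1 and 0.368 and 0.345 for H3K36me3. The 2 marks did not overlap in either place, with H3K36me3 the higher in bodies and the lower outside genes. The log2 ratio of bodies to intergenic windows was 0.65 ± 0.14 for H3K27me1 (SD, n = 2), a 1.57-fold enrichment, and 2.24 ± 0.08 for H3K36me3 (SD, n = 2), a 4.72-fold enrichment. The difference of 1.59 exceeded the spread between replicates, and the exact permutation test gave p = 0.33, the smallest value that 2 libraries against 2 can reach. Gene bodies made up 38.8% of autosomal windows and held 48.1% and 45.7% of the H3K27me1 window reads against 64.7% and 65.7% of the H3K36me3 window reads. Windows without reads were kept, namely 5.80% and 6.07% of autosomal windows for H3K27me1 and 18.2% and 24.6% for H3K36me3. Windows that could not hold mapped reads were not taken out. Where such windows lie outside genes they lower the intergenic level and raise the enrichment, by an amount that was not measured.

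Across genes the marks ranked gene bodies alike, but H3K36me3 spanned a much wider range. Over the 13096 genes with a mean relative level of at least 0.1, Spearman's rho between a library of H3K27me1 and a library of H3K36me3 averaged 0.842 ± 0.0488 (SD over 4 pairs of libraries). H3K27me1 replicate 1 gave 0.891 and 0.878 with the H3K36me3 libraries, and replicate 2 gave 0.803 and 0.798. Replicates of the same mark gave 0.952 for H3K27me1 and 0.991 for H3K36me3. These are correlations across genes, which are not independent replicates and share mappability and base composition. The interquartile range of gene levels, on a log2 scale with 0.1 added, was 1.11 and 0.82 in the H3K27me1 libraries and 1.97 and 2.01 in the H3K36me3 libraries. On average this was 0.97 ± 0.20 against 1.99 ± 0.03 (SD, n = 2 each, exact permutation p = 0.33).

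**Figure D1:**
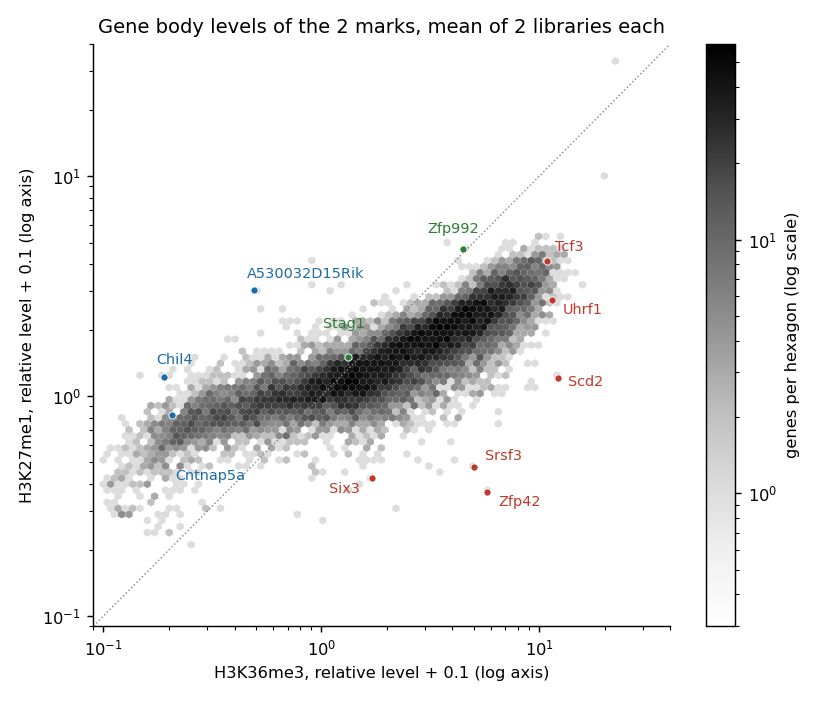
Each hexagon counts tested genes by mean relative level of H3K36me3 (horizontal) and H3K27me1 (vertical), both plus 0.1 on log axes; the dotted line marks equal levels, and labelled genes are red or blue where called higher in H3K36me3 or H3K27me1, green where not called. The cloud rises less steeply than the dotted line, crossing it near a level of 1, with Zfp42 (0.268 for H3K27me1, 5.69 for H3K36me3) far below it and A530032D15Rik (2.93 and 0.392) far above it.

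When genes were ranked by H3K36me3 replicate 1 and divided into deciles, the median H3K27me1 level went up at each step. From the lowest to the highest decile the medians went from 0.627 to 3.21 in H3K27me1 replicate 1 and from 0.704 to 2.39 in replicate 2, a 5.13-fold and a 3.40-fold range. In H3K36me3 replicate 2, which took no part in the ranking, they went from 0.169 to 7.82, a 46.3-fold range. H3K27me1 was the higher of the marks in the lowest 2 deciles (0.627 and 0.704 against 0.169 in the lowest). In decile 3 the medians were 0.960 and 1.01 for H3K27me1 and 0.933 for H3K36me3 replicate 2, and from decile 4 up H3K36me3 was the higher. The authors' H3K27me1 peaks covered a median of 0% of the body in the lowest decile, 33.3% in decile 5 and 99.6% in the highest.

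The other marks did not follow this order. H3K27me3, the Polycomb mark, was highest in deciles 3 and 4, with medians of 2.10 and 1.99 in decile 3 (replicates 1 and 2) and 2.14 and 1.99 in decile 4, and was 0.184 and 0.152 in the highest. H3K36me2 peaked in decile 5 at 2.26 and 2.06, and H3K27me2 lay between 1.26 and 1.59 from decile 3 up. Across all tested genes H3K27me3 had a Spearman rho of -0.495 ± 0.039 with H3K27me1 and of -0.361 ± 0.051 with H3K36me3 (SD over 4 pairs of libraries). With H3K27me2 the rho was 0.286 for H3K27me1 and 0.326 for H3K36me3, and with H3K36me2 it was 0.161 and 0.288.

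**Figure D2:**
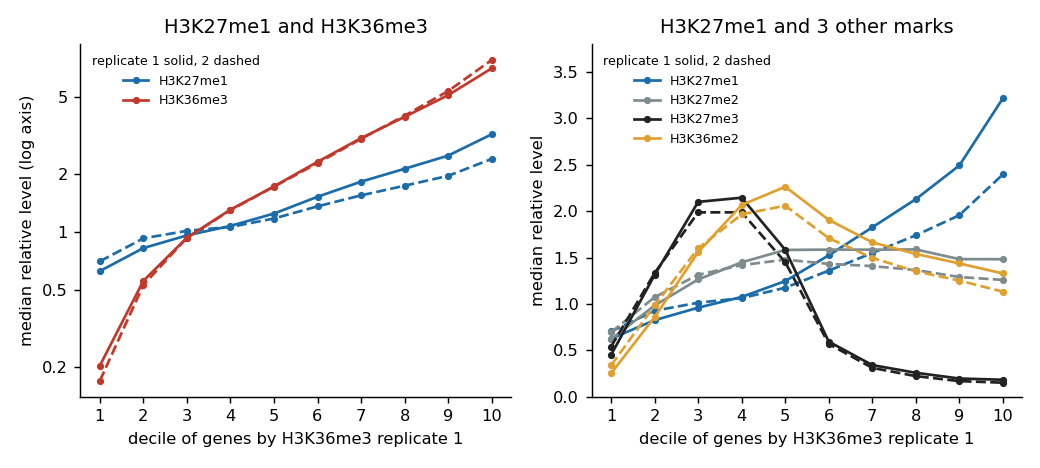
Median relative level of each mark over deciles of genes ranked by H3K36me3 replicate 1, on a log axis for the 2 compared marks (left) and a linear axis for H3K27me1 with the 3 other marks (right); solid lines are replicate 1 and dashed lines replicate 2. H3K27me1 climbs to 3.21 and 2.39 in the highest decile, where H3K27me3 is at 0.184 and 0.152.

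Within most deciles by H3K36me3, genes with more H3K27me3 carried less H3K27me1. Each decile was divided at its median H3K27me3 level. In decile 6 the lower part had median H3K27me1 levels of 1.72 and 1.48 and the upper part 1.3 and 1.21, while H3K36me3 replicate 1 was 2.35 and 2.28 in the lower and upper part. H3K27me1 was lower in the part with more H3K27me3 in 9 of 10 deciles in replicate 1 and in 8 of 10 in replicate 2, the exceptions being the lowest decile in both replicates (0.577 and 0.654 in the lower against 0.651 and 0.747 in the upper part) and the highest decile in replicate 2. H3K36me3 replicate 2 was higher in the part with more H3K27me3 in all 10 deciles. Replicate 1 defined the deciles and differed little between the parts from decile 3 up, so the replicates cannot be compared here. In the lowest decile, however, it was 0.144 in the lower and 0.250 in the upper part, and in decile 2 it was 0.521 and 0.597. The parts of the lowest decile, an exception for H3K27me1, therefore did not have similar H3K36me3. When each decile was divided by gene length instead, H3K27me1 was lower in the longer genes in 3 of 10 deciles in replicate 1 and in 0 of 10 in replicate 2.

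Gene by gene, limma on log2 relative levels (0.1 added) called 7674 of 13096 genes, 58.6%, higher in H3K36me3 and 2590, 19.8%, higher in H3K27me1 at a Benjamini-Hochberg adjusted p under 0.05. The median difference, H3K27me1 minus H3K36me3, was -0.56. limma estimated a spread common to all genes here, so every gene shares a standard error of 0.17 and small p-values rest on that estimate. Of all calls, 25.2% were higher in H3K27me1. This share was 52.5% with each library centred on its median gene, which moved the median difference to 0.01. It was 54.8% after quantile normalization, which gives the 4 libraries the same distribution of gene levels and so compares the order of genes. With quantile normalization 2669 genes (20.4%) were higher in H3K27me1 and 2199 (16.8%) in H3K36me3. Standard errors differed between genes in that fit, for example 0.71 for Set and 0.10 for Tcf3. Calls lost or gained there can therefore follow from the spread of a gene as well as from its order. Of the calls on relative levels, 3171 were called the same way there and 693 the opposite way, so each group of genes below is given with both.

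The 10 genes with the largest excess of H3K36me3 had H3K27me1 near or below the library mean. They were Zfp42, Srsf3, Scd2, Tbx3, Set, Eef1g, Mybl2, Npm1, Hnrnpl and Hnrnpa3, all between 10.3 and 30.4 kb long. Their H3K36me3 means ran from 2.03 to 12.1 and their H3K27me1 means from 0.212 to 1.27, a 7.38-fold to 21.3-fold excess of H3K36me3. With either H3K27me1 library left out the folds ran from 5.75 to 28.7, and those of Scd2, Tbx3, Set and Hnrnpa3 moved by over 1.5 times, H3K27me1 replicate 2 being the lower library in each. Each was also called higher in H3K36me3 after quantile normalization, and the largest of their 10 limma adjusted p-values on relative levels was 1.93e-56. With a standard error common to all genes, these p-values follow from the size of the differences by which the genes were picked.

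Zfp42 (REX1, a zinc finger protein that marks naive pluripotent cells; chr8:43295067-43307009, GRCm38.p6, minus strand) had H3K27me1 levels of 0.337 and 0.198 and H3K36me3 levels of 5.98 and 5.39. The log2 difference of -4.0 ± 0.17 (SE) was the most negative among the genes named for their size of change, with limma adjusted p = 1.58e-113. Over its 12 windows H3K27me2 averaged 0.062 and H3K27me3 0.049, so no methyl form of lysine 27 was near the library mean. Srsf3 (a serine and arginine rich splicing factor; chr17:29032660-29043372) had 0.437 and 0.313 for H3K27me1 and 5.4 and 4.5 for H3K36me3. Scd2 (a stearoyl-CoA desaturase, which makes monounsaturated fatty acids) had the highest H3K36me3 of the 10, 11.7 and 12.4, with H3K27me1 at 1.5 and 0.714.

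Tbx3, a T-box factor of the naive pluripotency network, had H3K27me1 at 0.940 and 0.377 and H3K36me3 at 6.57 and 6.43. In Mybl2, a MYB-family activator of cell cycle genes, the values were 1.41 and 0.722 against 8.53 and 9.38. For both genes H3K27me1 replicate 1 was well above replicate 2 and both stayed far under H3K36me3. Npm1, which encodes the nucleolar chaperone nucleophosmin, had 0.415 and 0.280 against 3.99 and 2.71. Eef1g, a subunit of translation elongation factor 1, had 1.27 and 0.686 against 8.43 and 8.94.

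The 10 genes with the largest excess of H3K27me1 had H3K36me3 well below the library mean. They were Chil4, Cyp3a25, Chil3, A530032D15Rik, Cabp5, Cyp3a59, Bsph1, Bsph2, Vmn2r120 and Slc22a26. Their H3K27me1 means ran from 0.936 to 2.93, with a median of 1.17, and their H3K36me3 means from 0.0888 to 0.392. Genes were named only with a mean over the 4 libraries of at least 0.5, which with so little H3K36me3 sets the lower end of their H3K27me1 range. The excess was 7.49-fold to 12.6-fold. With either H3K36me3 library left out it ran from 5.15-fold to 23.2-fold, and 3 genes moved by over 1.5 times, namely Chil4 (8.69-fold without replicate 2 and 23.2-fold without replicate 1), Cabp5 and Slc22a26. Each gene kept its call after quantile normalization, and the largest limma adjusted p on relative levels was 8.94e-39. That p-value, too, follows from the size of difference by which the genes were picked. Most belong to gene families (chitinase-like, cytochrome P450 3A, binder of sperm, vomeronasal receptor and organic anion transporter genes). Reads can be split between copies that are alike, and the values are uncertain to that extent. How alike the copies are was not measured here.

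Chil4 (a chitinase-like lectin; chr3:106201491-106219479, minus strand) had H3K27me1 levels of 1.08 and 1.16 and H3K36me3 levels of 0.129 and 0.048, the latter from 25 and 8 window reads. Its log2 difference was 2.73 ± 0.17 (SE, limma adjusted p = 4.56e-53). Cyp3a25, a drug-metabolising cytochrome P450, had 1.03 and 1.23 against 0.084 and 0.106. For both genes the H3K27me1 libraries lay far above the H3K36me3 libraries. Genes were named by size only if the marks did not overlap, as in 11822 of the 13096 tested genes. A530032D15Rik stood apart with H3K27me1 at 2.70 and 3.16, H3K27me3 at 2.43 and H3K36me3 at 0.342 and 0.441.

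The starts of 3 genes illustrate the extremes, and their promoters are printed because the genes they serve sit at the ends of this comparison. The sequences are RefSeq's, build GRCm38.p6, 250 bases up to the start in the direction of transcription, with each CG dinucleotide in capitals.
Zfp42 (chr8:43307010-43307259, minus strand): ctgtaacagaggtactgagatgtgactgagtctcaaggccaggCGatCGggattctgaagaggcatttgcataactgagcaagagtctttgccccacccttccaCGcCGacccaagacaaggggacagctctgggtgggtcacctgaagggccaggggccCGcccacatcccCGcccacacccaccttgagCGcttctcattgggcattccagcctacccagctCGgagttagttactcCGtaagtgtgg
Srsf3 (chr17:29032410-29032659, plus strand): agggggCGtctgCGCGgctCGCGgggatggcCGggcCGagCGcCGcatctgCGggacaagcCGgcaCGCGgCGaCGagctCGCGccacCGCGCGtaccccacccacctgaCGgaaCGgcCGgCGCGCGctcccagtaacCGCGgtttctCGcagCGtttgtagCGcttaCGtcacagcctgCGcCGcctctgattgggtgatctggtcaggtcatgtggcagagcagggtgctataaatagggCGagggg
Chil4 (chr3:106219480-106219729, minus strand): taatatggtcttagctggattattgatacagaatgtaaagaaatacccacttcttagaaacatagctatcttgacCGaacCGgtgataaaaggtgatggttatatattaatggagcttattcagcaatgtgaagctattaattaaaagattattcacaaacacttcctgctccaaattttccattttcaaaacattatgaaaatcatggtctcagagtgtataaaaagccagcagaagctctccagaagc
With the 50 bases after the start included, these held 11, 42 and 2 CG dinucleotides. Among all 300-base promoters given by RefSeq, 94.6% held at least 1, and 41.4%, 3.03% and 85.9% held as many as Zfp42, Srsf3 and Chil4, respectively. The 1 kb window over the Zfp42 promoter had 1 and 2 H3K27me1 reads and 3 and 2 H3K36me3 reads, and that of Srsf3 had 14 and 5 against 13 and 8. That of Chil4 had 17 and 24 H3K27me1 reads (levels of 0.799 and 1.39) against 0 and 1 H3K36me3 reads. A comparison of CG content across the called genes is void and its values are not given, since 79.4% of tested genes had a promoter entry, under the share required for a check over a whole set. Results by position in the gene cover only the genes with such an entry.

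Genes of the pluripotency network were all on the H3K36me3 side. Of 36 listed genes, 25 were long enough and tested, and 25 were called higher in H3K36me3, against 58.6% of all tested genes. Their median difference was -1.44 (all genes: -0.56). After quantile normalization 14 were higher in H3K36me3, against 16.8% of all genes, 1 was higher in H3K27me1, and the median was -0.53 (all genes: 0.05). The list holds the symbol Tcf3, which in RefSeq is the gene on chromosome 10 for the E2A (E12/E47) basic helix-loop-helix factors and not Tcf7l1, the Wnt pathway repressor of the network that shares the older name. Tcf3 had the highest level of both marks on the list, 4.63 and 3.38 for H3K27me1 and 9.58 and 12.1 for H3K36me3, and it lost its call after quantile normalization (-0.06, limma adjusted p = 0.688). Without it 24 of 24 genes were higher in H3K36me3 (median -1.45), and 14 were after quantile normalization (median -0.59). Tcf7l1 itself had 1.61 and 1.22 against 3.38 and 3.43, and with it in place of Tcf3 the count was 25 of 25. Prdm15, a PR-domain zinc finger regulator, was the 1 gene that changed sides, with H3K27me1 at 3.61 and 3.24 and H3K36me3 at 5.31 and 5.84. Its difference was -0.69 on relative levels and 0.59 after quantile normalization (limma adjusted p = 0.0206).

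Genes of the machinery that writes and reads the 2 marks were nearly all higher in H3K36me3. All 11 tested PRC2 and H3K27 enzyme genes were so called, against 58.6% of all genes, with a median of -1.20. After quantile normalization 5 were, against 16.8% of all genes, and 0 were higher in H3K27me1. Ezh2, the catalytic subunit, had 2.00 and 1.54 for H3K27me1 and 2.99 and 2.41 for H3K36me3, the smallest gap of the list (-0.59), which became 0.25 and not called after quantile normalization (adjusted p = 0.176, limma). Mtf2, a PRC2 accessory subunit, lay at the other end with 0.762 and 0.568 against 4.29 and 3.38, a difference of -2.36 that quantile normalization left at -2.37. Of 25 genes listed as H3K36 writers, erasers and readers 22 were higher in H3K36me3 and 1, Kdm4d, in H3K27me1, with a median of -0.97. Membership is that of the list, and whether the product of Kdm4d acts on H3K36 was not examined here. After quantile normalization the counts were 5 and 5 of 25, near the 16.8% and 20.4% of all genes, with a median of 0.01. Msh6, a mismatch repair protein that reads H3K36me3, had 1.21 and 0.765 against 6.82 and 6.62. Kdm4a, a demethylase of H3K36me3, had the highest H3K36me3 of that list, 9.06 and 10.5, with H3K27me1 at 2.51 and 2.21. All 14 tested DNA methylation and Tet genes were higher in H3K36me3, against 58.6% of all genes (median -1.24). After quantile normalization 6 of 14 were, against 16.8% of all genes, and 1 was higher in H3K27me1, against 20.4% (median -0.28). In Uhrf1, the partner of the maintenance methyltransferase DNMT1, H3K27me1 was 3.26 and 2.03 and H3K36me3 10.4 and 12.3.

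Housekeeping machinery had high levels of both marks. Of 52 spliceosome genes 51 were higher in H3K36me3 (median -1.25), as were 44 of 48 replication and cohesin genes (median -1.15) and 34 of 37 genes of RNA polymerase II elongation (median -1.05), against 58.6% of all genes. None was higher in H3K27me1 on relative levels. Median H3K27me1 levels of these 3 lists were 2.89 and 2.15, 2.31 and 1.76, and 2.60 and 1.82, against 1.37 and 1.26 over all genes. After quantile normalization the medians came to -0.08, -0.09 and 0.03, near the 0.05 of all genes, with 12, 13 and 1 genes higher in H3K36me3 and 4, 5 and 4 in H3K27me1, against 16.8% and 20.4% of all genes. Nelfb, a subunit of the negative elongation factor, had the highest H3K27me1 of the elongation list at 6.07 and 4.24 with H3K36me3 at 9.23 and 10.3. Its difference was -0.93 on relative levels and 0.43 after quantile normalization (limma adjusted p = 0.0367). Sf3b3, of the U2 particle that recognises branch points, kept its side at 1.87 and 1.26 against 7.60 and 7.13. The cohesin subunit Stag1, a gene of 361 kb, had 1.47 and 1.34 against 1.31 and 1.14 and was not called (0.18 ± 0.17, SE, limma adjusted p = 0.321). After quantile normalization it was called higher in H3K27me1 (0.62, limma adjusted p = 0.0136).

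**Figure D3:**
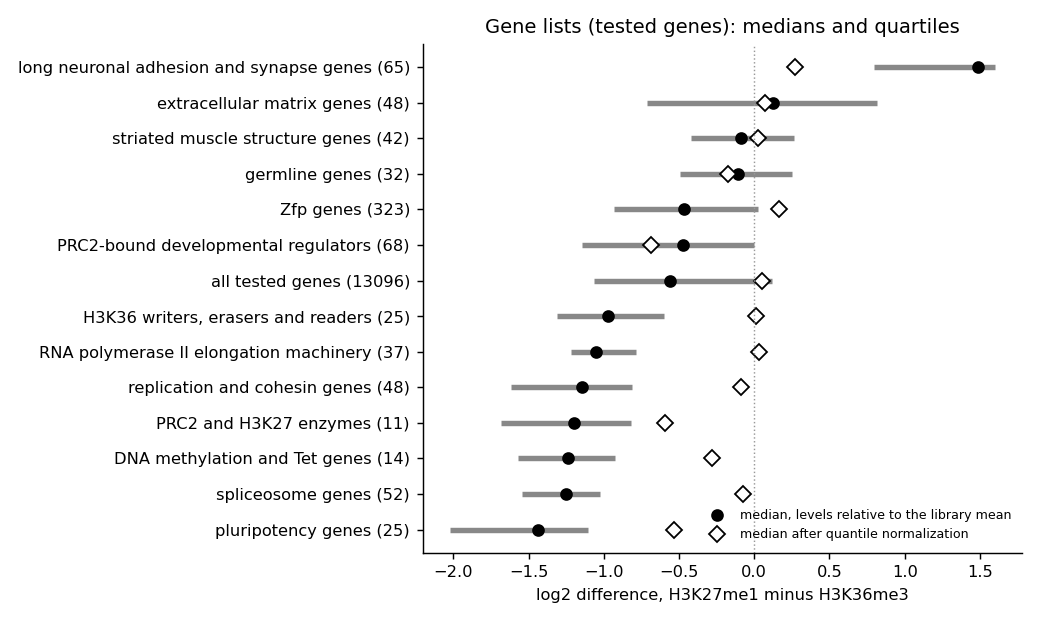
For each gene list (number of tested genes in brackets) the black point is the median log2 difference, H3K27me1 minus H3K36me3, on relative levels, the grey bar its quartiles, and the open diamond the median after quantile normalization. The pluripotency list lies lowest at -1.44 and the long neuronal list highest at 1.49, and quantile normalization brings most medians toward 0 but moves the PRC2-bound developmental regulators from -0.47 to -0.69.

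Long neuronal adhesion and synapse genes were on the H3K27me1 side. Of 65 tested genes, 60 were higher in H3K27me1, against 19.8% of all genes, and 1 in H3K36me3, with a median of 1.49. Their H3K27me1 levels were below the library mean, with medians of 0.641 and 0.709, while those of H3K36me3 were 0.194 and 0.166. After quantile normalization 23 were higher in H3K27me1 and 0 in H3K36me3, against 20.4% and 16.8% of all genes, with a median of 0.27. Cntnap5a, a contactin-associated cell adhesion gene of 903 kb, had 0.698 and 0.752 against 0.120 and 0.092. Tenm4, a teneurin, was the exception higher in H3K36me3, with 1.43 and 1.51 against 2.03 and 2.03. Its difference of -0.44 turned to 0.12 with median centring and to 0.23 after quantile normalization, neither called.

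Developmental regulators listed as bound by PRC2 differed from these lists, since they gained distance from other genes when only order was compared. PRC2 binding itself was not measured in these libraries. Of 68 tested genes 40 were higher in H3K36me3, a share close to the background of 58.6%. In H3K27me1 11 were higher, against 19.8% of all genes, and the median was -0.47. After quantile normalization 41 were higher in H3K36me3 against 16.8% of all genes, 0 were higher in H3K27me1 against 20.4%, and the median was -0.69. With median centring alone the median was 0.09. Their H3K27me1 medians of 0.732 and 0.681 were about those of the neuronal list, their H3K36me3 medians were 1.14 and 1.18, and their H3K27me3 medians were 3.69 and 3.86. Gata2, a blood and neural GATA factor, had H3K27me1 at 0.770 and 0.411, H3K36me3 at 2.46 and 2.75 and H3K27me3 at 9.13. Foxp2, a forkhead factor of 541 kb, had 0.489 and 0.563 against 0.118 and 0.084. Its difference of 1.64 on relative levels was 0.16 and not called after quantile normalization (limma adjusted p = 0.287). Gli2, a Hedgehog pathway factor, had the highest level of both, 2.79 and 2.42 against 5.2 and 5.6, with H3K27me3 at 0.293. Gli2, and Foxp2 with H3K27me3 at 0.564, thus did not have the high H3K27me3 of the list, against medians of 0.570 and 0.561 over all genes.

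Among genes not named above by size, those with the largest differences in order included more regulators of this kind. These genes were picked after the quantile-normalized values were seen. Zfp42 (-4.13), Srsf3 (-3.60) and, on the other side, A530032D15Rik (2.91), named above, had larger differences after quantile normalization. Six3 and Tbr1, forebrain transcription factors, had H3K27me1 at 0.431 and 0.218 and at 0.389 and 0.190, with H3K36me3 at 1.49 and 1.74 and at 1.35 and 1.42. H3K27me3 averaged 11.1 over Six3 and 6.58 over Tbr1. Eif2s2, a translation initiation factor subunit, and Nop58, a nucleolar ribonucleoprotein, had the same order of the marks with H3K27me3 at 0.0445 and 0.0451. So did H2-M5, with H3K27me3 at 0.0573. Low H3K27me1 for a given H3K36me3 was thus found at both ends of the H3K27me3 range. On the other side Psg29, Vmn1r63, Chia1, Cd244a and Gbp2b had H3K27me1 between 1.60 and 2.98 in each library and H3K36me3 between 0.236 and 1.02.

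Lists of tissue genes fell between. Of 48 extracellular matrix genes 19 were higher in H3K27me1 and 17 in H3K36me3, against 19.8% and 58.6% of all genes (median 0.12). After quantile normalization the counts were 8 and 6, against 20.4% and 16.8% (median 0.07). Fn1, fibronectin, had 2.38 and 1.68 against 7.94 and 8.0, and Col11a1, a minor fibrillar collagen, 0.532 and 0.582 against 0.098 and 0.093. The call of Col11a1 was lost after quantile normalization (1.75, then 0.29, limma adjusted p = 0.0904). Of 42 striated muscle genes 9 were higher in H3K27me1 and 15 in H3K36me3 (median -0.09, and 0.48 with median centring), against 19.8% and 58.6% of all genes. After quantile normalization 9 and 9 were, near the 20.4% and 16.8% of all genes (median 0.02). Among 32 germline genes the counts were 7 and 12, against 19.8% and 58.6% of all genes (median -0.11, and 0.46 with median centring). After quantile normalization they were 4 and 8, against 20.4% and 16.8%, with a median of -0.18, on the other side of 0 from the centred value. Tdrd6, a tudor protein of spermatids, had H3K27me1 at 0.495 and 0.433, H3K36me3 at 1.10 and 1.36 and H3K27me3 at 6.83. Sycp2, of the synaptonemal complex, had 0.379 and 0.395 against 0.130 and 0.133, a difference of 1.07 that became -0.40 after quantile normalization.

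Zfp genes, which encode zinc finger proteins, kept to the background on relative levels and leaned to H3K27me1 in order. Of 323 tested members 183 (against 58.6% of all genes) were higher in H3K36me3 and 54 (against 19.8%) in H3K27me1, with a median of -0.47. After quantile normalization 98 were higher in H3K27me1, against 20.4% of all genes, and 58 in H3K36me3, near the 16.8% of all genes. The median was 0.16, and median centring gave 0.10. Zfp992 had the highest H3K27me1 of the family, 4.72 and 4.43, with H3K36me3 at 4.31 and 4.44. It was not called on relative levels (0.06 ± 0.17, SE, limma adjusted p = 0.743) and was called higher in H3K27me1 after quantile normalization (1.29, limma adjusted p = 0.00659). Zfp640 had 1.12 and 1.12 against 0.262 and 0.168. On the other side Zfp42, described above, had the most negative difference of the list (-4.0, and -4.13 after quantile normalization). Zfp335 had its highest H3K36me3, 9.95 and 11.8, with H3K27me1 at 4.08 and 3.33. Many Zfp genes lie in clusters of similar copies, to which the caution on shared reads applies.

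Gene length went with the difference. In genes of 10 to 20 kb the median difference was -0.83, with 69.6% of 3650 genes higher in H3K36me3. In the 940 genes of 200 kb or more it was 0.50, with 55.1% higher in H3K27me1 and 16.4% in H3K36me3. The H3K36me3 medians went from 2.70 and 2.68 in the shortest class to 0.638 and 0.620 in the longest, those of H3K27me1 from 1.55 and 1.33 to 0.860 and 0.979. After quantile normalization the class medians ran from -0.08 to 0.23 in the same order. The genes higher in H3K27me1 had a median length of 47.9 kb, those higher in H3K36me3 28.1 kb, and the authors' H3K27me1 peaks covered a median of 1.04% and 77.3% of their bodies. Genes called higher in H3K27me1 thus had little of their body in an H3K27me1 peak, and their median H3K36me3 levels of 0.375 and 0.349 lay further below the library mean than their H3K27me1 levels of 0.767 and 0.873.

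Along the gene, both marks went up from 5′ to 3′, H3K36me3 more steeply. Strand was known for 10549 of the 13323 genes, and 10396 of them passed the filter. Over the first of 10 equal segments of the body the mean levels were 1.27 and 0.976 for H3K27me1 and 1.62 and 1.59 for H3K36me3. Over the last segment they were 1.82 and 1.59 and 3.42 and 3.65. The last segment was thus 1.43 and 1.63 times the first for H3K27me1 and 2.11 and 2.30 times the first for H3K36me3, and H3K36me3 over H3K27me1 went from 1.43-fold to 2.08-fold. At each of these positions the 2 marks did not overlap (exact permutation p = 0.33, the smallest possible).

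In the quintile of genes with the most H3K36me3 (2141 genes) the ninth segment was the highest for both marks. H3K27me1 went from 1.79 and 1.14 in the first segment to 3.31 and 2.61 in the ninth, and H3K36me3 from 2.73 and 2.69 to 7.80 and 8.68. In the lowest quintile (2055 genes) H3K27me1 went from 0.734 and 0.776 in the first segment to 0.793 and 0.883 in the last. H3K36me3 dipped in the middle of these genes, from 0.468 and 0.449 in the first segment to 0.345 and 0.324 in segment 5 and back to 0.439 and 0.419 in the last.

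**Figure D4:**
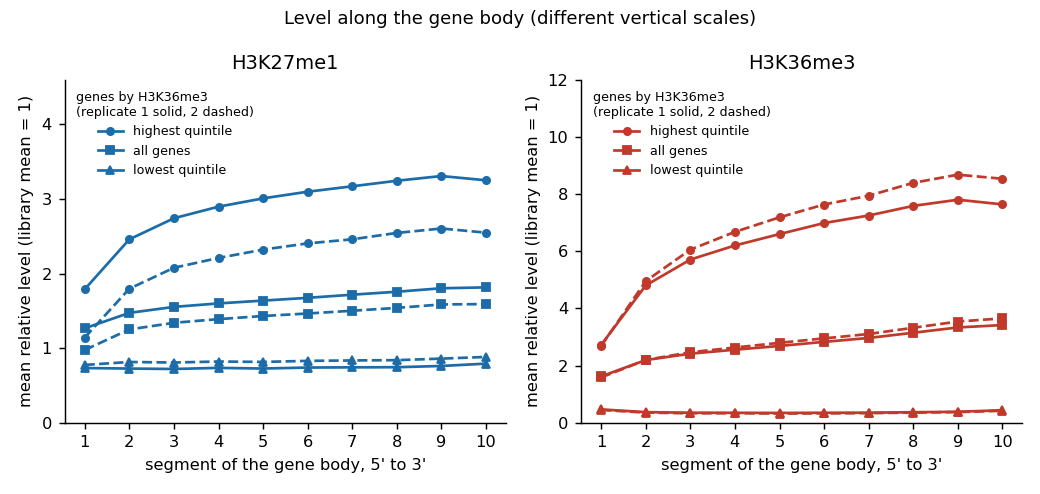
Mean relative level in 10 equal segments of the gene body, 5′ to 3′, for H3K27me1 (left) and H3K36me3 (right, another vertical scale), over all genes and the quintiles of highest and lowest H3K36me3; solid lines are replicate 1, dashed lines replicate 2. In the highest quintile H3K36me3 reaches 7.80 and 8.68 in the ninth segment and H3K27me1 3.31 and 2.61, while in the lowest quintile H3K36me3 dips from 0.468 and 0.449 to 0.345 and 0.324 in segment 5.

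The skew, the log2 ratio of the mean level in the last 20% of the body to that in the first 20%, summarised this. With levels first averaged over 10203 genes, so that genes with high levels weigh most, it was 0.38 and 0.48 in the H3K27me1 libraries. In the H3K36me3 libraries it was 0.79 and 0.89. The means of 0.43 ± 0.07 and 0.84 ± 0.07 (SD, n = 2 each) differed by 0.41, with exact permutation p = 0.33. From the lowest to the highest H3K36me3 quintile the difference, H3K27me1 minus H3K36me3, was 0.12, -0.07, -0.29, -0.44 and -0.40, so it had the other sign in the lowest and was widest in quintile 4. The means were 0.10 for H3K27me1 and -0.02 for H3K36me3 in the lowest quintile and 0.68 and 1.08 in the highest. Without the first and last 2 kb of each gene the difference between the marks was 0.28, over a smaller set of genes and with both end segments moved inward.

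Taken gene by gene, the median skew was 0.295 and 0.418 for H3K27me1 and 0.570 and 0.618 for H3K36me3. The median difference, H3K27me1 minus H3K36me3, was -0.23, smaller in size than that of the averaged levels. Per gene, limma called the skew of 2438 genes (23.9%) higher in H3K36me3 and of 941 (9.22%) higher in H3K27me1. These counts depended on each library: without H3K36me3 replicate 2 they were 1000 and 375, and without H3K27me1 replicate 2 they were 1283 and 292. Gtpbp2, a GTP-binding protein of ribosome rescue, had H3K36me3 at 0.186 and 0.327 in its first 20% and 8.88 and 10.5 in its last. Its H3K27me1 was 2.30 and 1.48 in the first and 3.34 and 2.93 in the last. Gtpbp2 spans only 10 windows, and 1 read was worth 0.0929 and 0.109 in an H3K36me3 window. Its low first levels of H3K36me3 thus rest on few reads. Sema6c, a semaphorin, had H3K36me3 at 1.55 and 1.63 and then 10.3 and 11.9, while H3K27me1 went the other way, from 2.16 and 1.37 to 0.956 and 0.619. Zfp661, Slc27a1 (a fatty acid transporter) and Zfp619 completed the 5 genes with the largest excess of H3K36me3 skew, with differences between -4.16 and -3.24.

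The 5 genes at the other extreme were Cacng6, Hnrnpa3, AW551984, Lhx9 and Sim1. Lhx9, a LIM homeodomain factor, had H3K36me3 at 1.58 and 1.61 in its first 20% and 0.112 and 0.065 in its last, with H3K27me1 at 0.602 and 0.429 and then 0.338 and 0.371. Sim1, a bHLH-PAS factor of the hypothalamus, had H3K36me3 at 0.944 and 1.02 and then 0.191 and 0.103, while H3K27me1 went from 0.322 and 0.272 to 0.463 and 0.519. In both the H3K36me3 was at the 5′ end. The low last levels of H3K36me3 in Lhx9 (24 windows) and Hnrnpa3 (10 windows, last levels 0.046 and 0) rest on few reads. Over Cacng6 H3K27me1 replicate 2 began at 0.174 and replicate 1 at 0.917, so its skew difference of 2.99 had a wide standard error of 0.63 (limma adjusted p = 0.0179). Regulators listed as PRC2-bound had a skew higher in H3K27me1 in 15 of 46 tested genes and higher in H3K36me3 in 2, and germline genes in 10 and 1 of 27, against 9.22% and 23.9% of all genes. Genes with the skew higher in H3K27me1 had a median H3K27me3 level of 1.18, against 0.550 over all genes tested for skew. They differed from all genes mainly in H3K36me3, with a median skew of -0.592 and -0.658 against 0.570 and 0.618. Their median H3K27me1 skew was 0.357 and 0.517 against 0.295 and 0.418.

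Distances in kb showed where the marks began and ended. Only genes of at least 40 kb, at least 10 kb from the next gene and with a promoter entry within 1 kb of the annotated start were used, which left 112 genes of the highest and 602 of the lowest H3K36me3 quintile. In the highest quintile H3K36me3 went from 1.80 and 1.76 in the first kb to 4.07 and 4.05 in the third and 4.65 and 4.74 in the fifth. H3K27me1 was lower near the start, at 1.4 and 0.72 in the first kb and 1.37 and 0.877 in the second, below its upstream level of 1.5 and 1.35 at 9 to 10 kb before the start. This drop was small in replicate 1 and large in replicate 2. In 292 genes of the middle quintile the replicates disagreed, at 1.22 and 0.619 in the first kb against 1.13 and 1.08 at 9 to 10 kb upstream. In the highest quintile H3K27me1 reached 2.27 and 1.61 in the fifth kb. At the 3′ end H3K36me3 was 7.57 and 8.29 at 2 to 3 kb before the annotated end, 5.43 and 5.98 in the first kb past it and 2.15 and 2.07 in the fifth. H3K27me1 was 3.02 and 2.49, 2.68 and 2.2, and 1.84 and 1.56 at the same places. By 9 to 10 kb past the end the marks were at 1.46 and 1.34 for H3K27me1 and 1.70 and 1.67 for H3K36me3.

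In the lowest quintile H3K36me3 had its highest level at the start itself, 0.761 and 0.799 in the first kb against 0.362 and 0.324 at 9 to 10 kb upstream. H3K27me1 was 0.781 and 0.606 in that kb and 0.609 and 0.63 in the third. At 1 to 2 kb before the start it was 0.670 and 0.715, so replicate 1 rose at the start and replicate 2 fell. At the end of these genes H3K27me1 was 0.771 and 0.889 at 3 to 4 kb before it, 0.67 and 0.778 in the last kb of the body and 0.862 and 0.965 in the second kb past it. At the same places H3K36me3 was 0.486 and 0.461, 0.43 and 0.388, and 0.444 and 0.424.

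**Figure D5:**
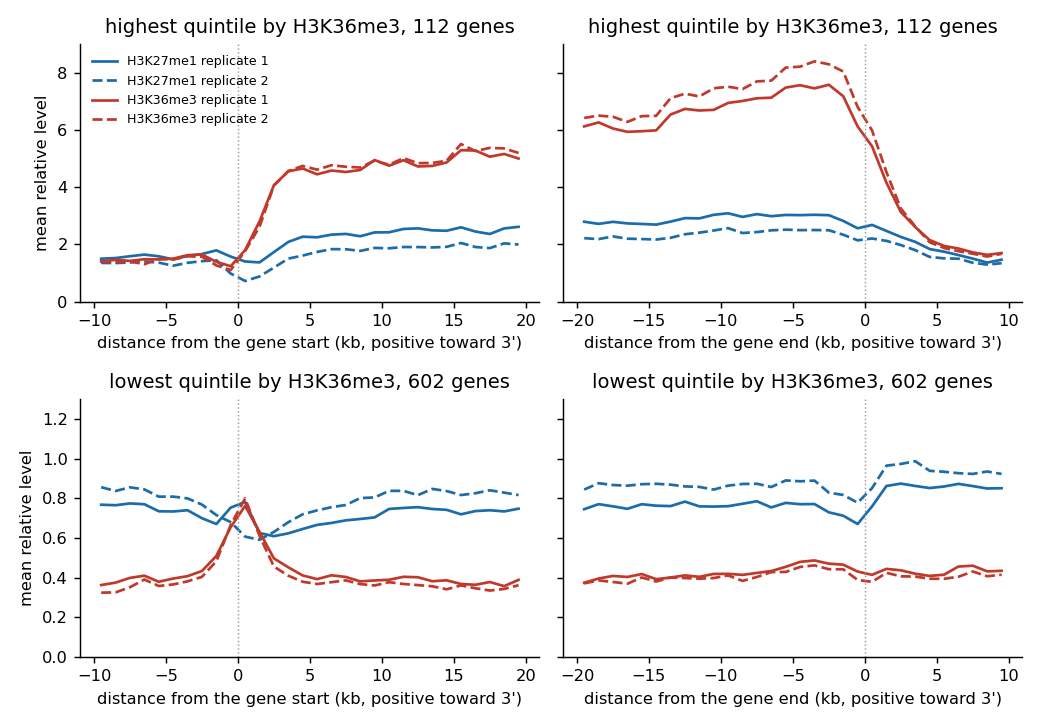
Mean relative level per kb of distance from the gene start (left) and end (right), positive toward 3′, for 112 genes of the highest (top) and 602 of the lowest (bottom) H3K36me3 quintile; blue is H3K27me1 and red H3K36me3, solid replicate 1 and dashed replicate 2, and rows have different vertical scales. In the top row H3K36me3 climbs within 5 kb of the start and drops within 5 kb past the end. H3K27me1 dips at the start there, mostly in replicate 2. In the bottom row H3K36me3 shows only a small peak at the start, where the H3K27me1 replicates go opposite ways.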

How the data were processed

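Per the submitters' processing notes, the authors used Trim Galore 0.4.2, Bowtie2 2.2.6.2 and SICER, with builds mm10 and dm3; the role of each tool, the treatment of reads with several matches and of duplicates are not given in the sources used here. The deposited tracks hold log2(1 + RPM), RPM being reads scaled to library size, in 1 kb windows every 500 bp. The authors' H3K27me1 peak list carries a deposited score per peak, which was not used beyond the positions. Values were linearised, which returned whole reads within 0.02 reads in low windows, and only non-overlapping windows of the 19 autosomes were kept. Each library was divided by its autosomal mean. Genes are RefSeq GRCm38.p6; strand came from RefSeq promoters.

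limma 3.58.1 (R 4.3.3) was fitted to log2(relative level + 0.1) for genes with a mean of at least 0.1 (skew: at least 0.3 and 2 windows at each end), with Benjamini-Hochberg adjustment at 0.05. Single values were tested by an exact two-sided permutation test. Other steps used Python 3.11.15, numpy 2.4.6, pandas 2.3.3, scipy 1.17.1 and matplotlib 3.10.9. The fits were also run on simulated data whose noise came from the H3K36me3 libraries alone, which does not cover the wider spread of H3K27me1. Named genes were the 10 largest differences and 5 largest skew differences per direction among called genes without a neighbour overlap (body: no overlap of libraries and a mean of at least 0.5), and from each list the extremes of the difference and the highest level of each mark. The members and lists were chosen with earlier results of these data known. Quantile normalization, a crossed replicate block, a trend in limma's spread the genes named from the quantile fit and the pluripotency list without Tcf3 were added after seeing the data.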

Additional observations from a re-analysis of the deposited data

How the results depend on the processing

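The labels number the replicates but do not say that equal numbers share a culture; replicate deviations of the marks correlated at -0.10 across genes. With the replicate block limma called 2555 and 7602 bodies higher in H3K27me1 and H3K36me3 and 932 and 2395 skews, and with crossed numbers 2625 and 7747, and 1046 and 2528. The body to intergenic difference was -1.35 in genes of 50 kb or more. The skew difference of the averaged levels was -0.32 with wider end segments and -0.28 without 2 kb at each end. Centring gave 4758 and 4300 body calls, quantile normalization 2669 and 2199. Leaving out 1 library gave 292 to 560 skew calls higher in H3K27me1 and 1000 to 1609 higher in H3K36me3, and 2127 to 2694 and 6694 to 7893 body calls; without H3K27me1 replicate 1 the skew calls were 560 and 1042, and without H3K36me3 replicate 1 they were 554 and 1609.

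Quantile normalization turned the sign, with a limma call on the other side, for Hdgfl2 (0.37), Mau2 (0.70), Nelfb (0.43), Prdm15 (0.59), Prpf31 (0.44), Sparc (0.43), Syce2 (0.66) and Sycp2 (-0.40). It turned the sign without a call for Ezh2 (0.25), Gli2 (0.20), Ints1 (0.0098), Tenm4 (0.23) and Uhrf2 (0.10), and turned the medians of the H3K36 (0.014), elongation (0.029), muscle (0.023) and Zfp (0.16) lists. A further 9 named genes lost and 5 gained a call in body level. Of those that gained a call, Thoc1 (0.94) and Trim63 (0.56) also turned sign. Genes named for skew are not in these counts. Among them Sim1 turned to a call higher in H3K36me3 (-0.66) and Cacng6 turned without a call (0.084). Centring turned the sign of Syce2 (0.12) and Tenm4 (0.12), neither called, and of the PRC2-bound (0.093), muscle (0.48), germline (0.46) and Zfp (0.10) medians. Both settings remove the shift of the median gene by construction. Depth limits low H3K36me3 levels in short genes, such as Chil4 with 25 and 8 window reads.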

Other observations

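A pair of genes lay outside the cloud of the other genes and were picked after their values were seen. Sfi1, a centrosomal protein gene that overlaps another gene, had H3K27me1 at 32.6 and 34.1 and H3K36me3 at 21.4 and 23.2, and its H3K27me3 was 32.4 and 29.9. Hjurp, which encodes the chaperone of the centromeric histone CENP-A and also overlaps another gene, had H3K27me1 at 11.2 and 8.53 and H3K36me3 at 17.3 and 20.9, with H3K27me3 at 1.21 and 0.782. Sfi1 was thus high for each of these marks and Hjurp for H3K27me1 and H3K36me3. How reads with several matches were placed is not given in the sources used here, and its part in these levels was not tested.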
